A study of Mus musculus with 2 samples.

Results

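The 8 genes described here encode 5 matrix metalloproteinases (MMPs), Mmp2, Mmp3, Mmp9, Mmp13 and Mmp14, and 3 tissue inhibitors of metalloproteinases (TIMPs), Timp1, Timp2 and Timp3. They were chosen by symbol as a gene family, and all 8 were among the 22620 genes counted in both libraries. MMPs are zinc-dependent proteases that cut the proteins of the extracellular matrix, and most are secreted as inactive proenzymes. TIMPs bind their active site and block it, and TIMP2 also acts as a bridge that brings proMMP2 to the membrane-bound MMP14 for activation. In tumours these enzymes are known from stromal and myeloid cells as much as from cancer cells, and are best known for remodelling collagen and basement membrane.

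Single cells were profiled from primary tumours and paired lymph nodes of C57BL/6J mice carrying EO771-HEVM3 tumours. The EO771 line comes from a breast tumour of this mouse strain, and its HEVM3 subline was enriched in the study, over repeated passages through mice, for cells that had spread from lymph nodes to the lung. It is named after high endothelial venules, the blood vessels by which lymphocytes leave the circulation for a lymph node. Each tissue gave 1 library of droplet-based 3′ counts, pooled over 6 mice, with no label that ties a cell to a mouse. The mice and the tumour line were the same for both libraries, so the tissue was the difference between them, together with the digestion: tumours were digested with collagenases I and III and hyaluronidase, and lymph nodes for a shorter time with collagenase P and dispase. Effects of tissue and of digestion cannot be told apart. Because each tissue has 1 library, differences between tissues could not be checked against replicates, and none was tested.

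After filtering, 8756 primary tumour cells (median 9383 UMIs, unique molecular identifiers that count single transcripts) and 9689 lymph node cells (median 2324 UMIs) were left, and 31 cell barcodes occurred in both. Classes were named from markers, and each class with at least 20 cells held all of its own markers at a count above 0. The primary tumour gave 5930 cancer cells, 97 fibroblasts, 71 pericyte-like cells, 42 endothelial cells, 618 macrophages, 408 monocytes and 310 neutrophils. The lymph node gave 591 cancer cells, 174 endothelial cells and 39 neutrophils, but 2 fibroblasts, 11 macrophages and 14 monocytes, too few for a level. Dcn, a fibroblast marker, was at 1034 CPM (counts per 1000000 UMIs of the class) in primary tumour cancer cells and at 1129 CPM in those of the lymph node, whereas Col1a1, Col3a1 and Pdgfrb were below 5 CPM in both. Pericyte-like cells also carried all 8 fibroblast markers, summed to 14836 CPM, against 11430 CPM in fibroblasts. The pericyte-like name rests on Rgs5 and Notch3, pericyte markers among the leading genes of these cells. The fibroblast clusters had no fibroblast marker among their leading genes, so that name rests on the levels of the markers. It is less secure for the cluster led by Htr2a, given further on, which also carried pericyte and smooth muscle markers. Levels are CPM of the UMIs summed over a class, and their bracketed 95% intervals are exact Poisson intervals that cover counting error only. A 3′ count does not grow with transcript length, but capture differs between genes, so levels of different genes are set side by side without a ranking.

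Mmp3 and Mmp13 belong to the same gene cluster on mouse chromosome 9, with 162491 bases between the end of Mmp13 (GRCm38, positions 7272514 to 7283331, plus strand) and the start of Mmp3 (positions 7445822 to 7455975, plus strand). Their promoters, from 250 bases before to 50 bases after the RefSeq start, are shown because these neighbours were counted in different cells, Mmp3 in fibroblasts and Mmp13 in macrophages, as given further on. Capitals mark an AP-1 motif (TGAGTCA or TGACTCA, each the reverse complement of the other) and a TATA motif (TATAAA), searched on both strands without overlap between them (RefSeq, GRCm38.p6).
Mmp3, chr9:7445572-7445871, plus strand: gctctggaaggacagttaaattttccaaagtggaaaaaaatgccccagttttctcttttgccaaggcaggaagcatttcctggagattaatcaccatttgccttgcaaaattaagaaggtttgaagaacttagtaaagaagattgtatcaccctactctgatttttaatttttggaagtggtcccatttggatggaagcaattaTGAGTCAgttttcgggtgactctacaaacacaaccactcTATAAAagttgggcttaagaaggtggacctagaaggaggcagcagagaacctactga
Mmp13, chr9:7272264-7272563, plus strand: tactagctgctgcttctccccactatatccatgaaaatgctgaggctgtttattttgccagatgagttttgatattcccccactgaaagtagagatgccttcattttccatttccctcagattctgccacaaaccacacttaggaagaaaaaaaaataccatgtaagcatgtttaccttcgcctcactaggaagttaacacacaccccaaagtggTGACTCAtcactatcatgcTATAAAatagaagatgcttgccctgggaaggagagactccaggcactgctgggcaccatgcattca
The AP-1 motif began 46 bases before the start of Mmp3 and 35 bases before that of Mmp13, and was present in 5.17% of 27025 promoters of the same length. The TATA motif was present in 14.2% of them. Windows were found for 6 of the 8 genes, the others being Mmp14, Timp1, Timp2 and Timp3. None of those 4 held either motif, and each held at least 1 GC motif (GGGCGG, both strands), which 35.9% of all promoters held. GC content was 40.0% for Mmp3 and 43.7% for Mmp13, against 55.0% for Timp1, 56.0% for Mmp14, 67.0% for Timp3 and 68.7% for Timp2.

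The 8 genes divided by named cell class in the primary tumour. Mmp2, Mmp3 and Timp1 were highest in fibroblasts, Mmp14 in pericyte-like cells, Mmp13 in macrophages, Mmp9 in neutrophils, Timp3 in endothelial cells and Timp2 in cancer cells. So 3 of the 8 had their highest level in fibroblasts, and with fibroblasts and pericyte-like cells taken as 1 class it was 4. The share of all genes highest in fibroblasts was not counted, so these counts are a description only. Mmp14 and Timp3 were also highest in fibroblasts with no upper limit on detected genes, where 1 endothelial cell was left, and Timp2 was with a mitochondrial limit of 10%. In cancer cells, 4 of the 5 MMPs were below 2 CPM in both libraries, and Mmp14 was the exception.

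**Figure D1:**
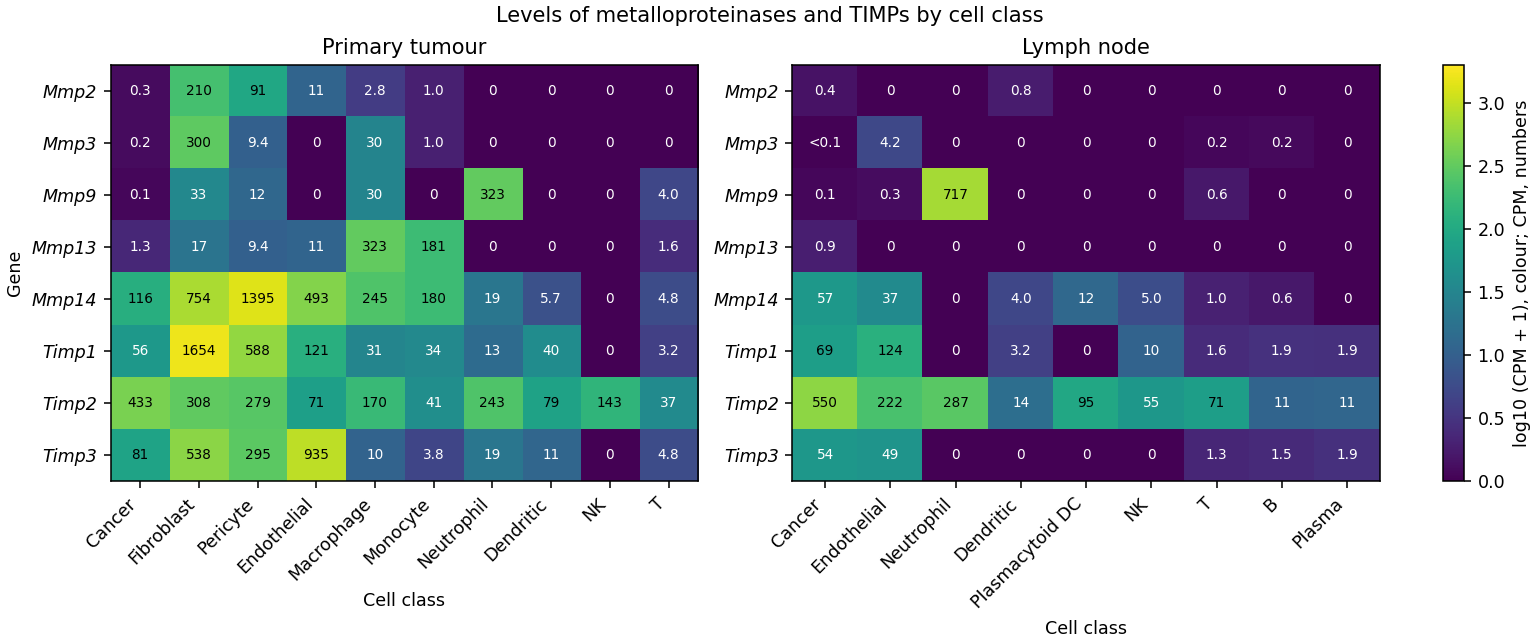
CPM of the 8 genes in each cell class with at least 20 cells, primary tumour on the left and lymph node on the right. Colour gives log10 (CPM + 1) and the numbers give CPM, which run in the primary tumour from 0 to 1654 for Timp1 in fibroblasts.

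Mmp14, the membrane-bound collagenase that activates proMMP2, was spread over the stromal, myeloid and cancer cells of the primary tumour. Pericyte-like cells had 1395 CPM (1286 to 1512), fibroblasts 753.9 CPM (691 to 822) and endothelial cells 493 CPM (414 to 582). Macrophages had 245 CPM (228 to 264), monocytes 179.8 CPM (155 to 207) and cancer cells 116 CPM (113 to 118). These 6 intervals of whole classes did not overlap one another. That of the fibroblasts led by Thbs4, given further on, overlapped the interval of pericyte-like cells. Neutrophils, T cells and dendritic cells held 7 UMIs, 6 UMIs and 1 UMI, at 18.7 CPM, 4.83 CPM and 5.66 CPM. After thinning every cell to 1000 UMIs, 66.8% (54.4% to 77.7%) of pericyte-like cells and 47.2% (36.8% to 57.8%) of fibroblasts had a UMI of Mmp14, against 0.201% of T cells. The share in T cells is given as a measure of free RNA in the droplets. Median depth before thinning was 5514 UMIs in pericyte-like cells, 5774 in fibroblasts and 1570 in T cells.

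Mmp2, gelatinase A, and Mmp3, stromelysin 1, were highest in fibroblasts among the named classes. Fibroblasts held 39.0% of Mmp2 and 40.1% of Mmp3 UMIs in the primary tumour, and unnamed cells held 40.6% and 38.0%. Of the 196 Mmp3 UMIs in unnamed cells, 1 cell held 87. Mmp2 was at 209.8 CPM (177 to 247) in fibroblasts, 91.3 CPM (64.9 to 125) in pericyte-like cells and 10.7 CPM (2.21 to 31.3) in endothelial cells, the last from 3 UMIs. In cancer cells it was at 0.259 CPM in the primary tumour and 0.448 CPM in the lymph node. Mmp3 was at 299.5 CPM (260.1 to 343) in fibroblasts and 9.36 CPM (2.55 to 24.0) in pericyte-like cells, so its intervals were further apart between these classes than those of Mmp2. Single cells weighed on Mmp3: 1 fibroblast held 70 of the 207 UMIs, and leaving it out gave 199.5 CPM. In macrophages 1 cell held 79 of 85 Mmp3 UMIs, and the level was 29.9 CPM with it and 2.12 CPM without it. The lymph node library held 15 UMIs of Mmp2 and 26 of Mmp3 in all kept cells. The largest share of its Mmp3, 57.7%, was in endothelial cells, at 4.18 CPM (2.34 to 6.89).

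Mmp13, collagenase 3, was a macrophage transcript. Macrophages had 323 CPM (302 to 344) and monocytes reached 181 CPM (156 to 208). Fibroblasts had 17.4 CPM (8.97 to 30.3), and the level in cancer cells was 1.31 CPM (1.10 to 1.56). Macrophages held 72.0% and monocytes 14.8% of its 1273 UMIs in the primary tumour. After thinning, 15.3% (12.5% to 18.5%) of macrophages and 8.02% (5.48% to 11.2%) of monocytes had a UMI, against 0.348% of T cells, from 2 UMIs. In the lymph node library 18 of 29 UMIs lay in the 591 cancer cells, at 0.897 CPM (0.532 to 1.42), and no other class with at least 20 cells held any. The rest lay among the 2 fibroblasts, 11 macrophages and 14 monocytes, too few cells for a level.

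Mmp9, gelatinase B, which neutrophils store in granules, was the only 1 of the 5 MMPs with more than 10 UMIs in the neutrophils of either tissue. Its level was 323 CPM (268 to 386) in the 310 primary tumour neutrophils. In the 39 lymph node neutrophils it was 717 CPM (559 to 906). Neutrophils held 84.3% of its 83 UMIs in the lymph node and 44.6% of its 271 UMIs in the primary tumour, where macrophages held 31.0% at 29.6 CPM (23.6 to 36.6). Fibroblasts had 33.3 CPM (21.1 to 49.9) from 23 UMIs. Primary tumour neutrophils were shallow, with a median of 730 UMIs, so that thinning left 63 of them, of which 16.9% (8.66% to 28.5%) had a UMI. Of 33 lymph node neutrophils it was 34.5% (18.9% to 53.0%). Mmp8, the neutrophil collagenase and no member here, was at 87.99 CPM (60.6 to 124) in primary tumour and 563 CPM (424 to 733) in lymph node neutrophils, the latter overlapping Mmp9. Primary tumour macrophages had as much Mmp8 as the neutrophils there, at 89.1 CPM (78.4 to 101) from 253 UMIs.

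**Figure D2:**
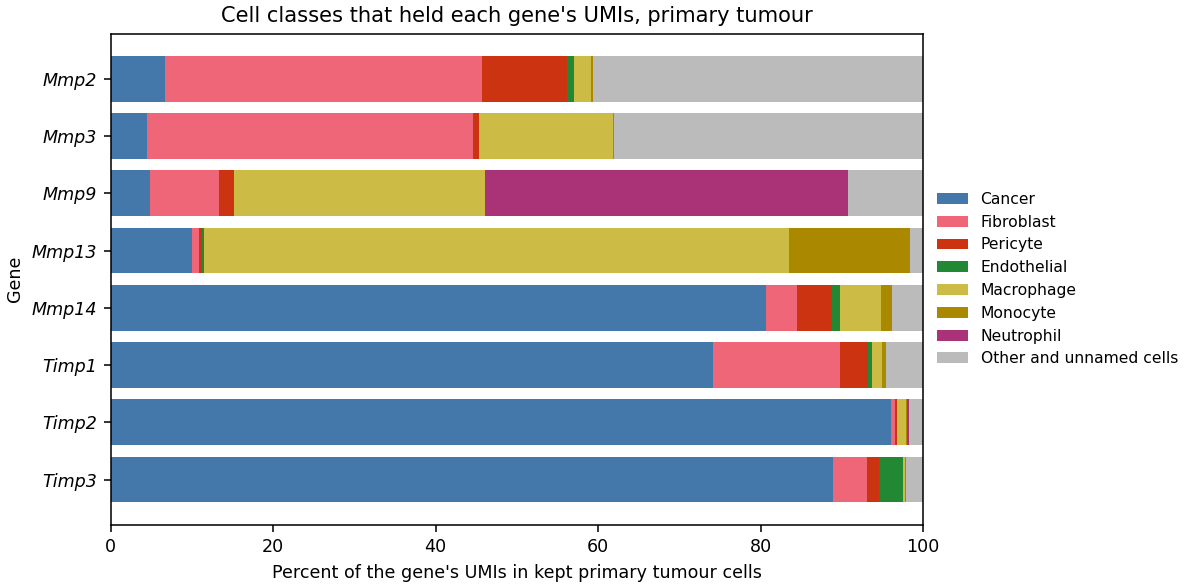
Each bar divides the UMIs of 1 gene in kept primary tumour cells among cell classes, in percent. Cancer cells held 96.0% of Timp2 and 80.7% of Mmp14 UMIs, but 6.72% of Mmp2 and 9.98% of Mmp13 UMIs.

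Timp1, an inhibitor that many cells induce in inflammation, was highest in fibroblasts at 1654 CPM (1559 to 1753), followed by pericyte-like cells at 588 CPM (517 to 665) and endothelial cells at 121 CPM (84.1 to 170). Cancer cells had 56.2 CPM (54.8 to 57.8), macrophages 31.0 CPM (24.9 to 38.2) and monocytes 34.4 CPM (24.1 to 47.7). The last pair of intervals overlapped. A single fibroblast held 186 of the 1143 fibroblast UMIs. Without it the fibroblast level was 1420 CPM, still above all other classes. A UMI of Timp1 was found in 55.4% (44.8% to 65.7%) of thinned fibroblasts and 0.359% of thinned T cells.

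Timp3, which stays bound to the matrix, was highest in endothelial cells at 935 CPM (826 to 1056), with fibroblasts at 538 CPM (485 to 596), pericyte-like cells at 295 CPM (246 to 351) and cancer cells at 81.3 CPM (79.5 to 83.1). These 4 intervals of whole classes did not overlap. That of the fibroblasts led by Thbs4, given further on, overlapped the interval of endothelial cells. Macrophages and monocytes were low, at 10.2 CPM and 3.83 CPM. After thinning, 58.4% (41.7% to 73.7%) of endothelial cells had a UMI, against 0.501% of T cells.

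Among the named classes, Timp2 was highest in cancer cells, at 433 CPM (429 to 437). After thinning, 33.4% (32.2% to 34.7%) of cancer cells had a UMI. The unnamed cells led by Cxcl13, given further on, were higher at 1709 CPM. Fibroblasts were at 308 CPM (268 to 353) and pericyte-like cells at 279 CPM (231 to 333), with overlapping intervals. Neutrophils had 243 CPM (195 to 298) in the primary tumour and 287 CPM (191 to 414) in the lymph node. In the primary tumour neutrophils the 8 cancer markers summed to 2077 CPM, against 4367 CPM in the cancer cells themselves, and 1 cell held 31 of the 91 Timp2 UMIs. In the lymph node neutrophils the cancer markers summed to 102 CPM, with 5 of the 8 above 10 CPM. Epcam, Cldn4 and Cldn7 were at 0 there, which allows up to 30.7 CPM. The part of cancer cell RNA in the Timp2 of neutrophils was not tested. Macrophages had 170.1 CPM (155 to 186), monocytes 41.1 CPM (29.8 to 55.4) and endothelial cells 71.4 CPM (43.6 to 110).

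Timp2 was also the only 1 of the 8 genes that passed 20 CPM in T or NK cells, and none did in B cells. T cells of the lymph node were at 70.6 CPM (66.1 to 75.4). After thinning, 6.58% (5.80% to 7.44%) of them had a UMI, against 1.11% (0.826% to 1.46%) of B cells. Of the UMIs of Timp1 and Timp2 together, Timp2 made up 97.8% (96.7% to 98.7%) in T cells, 84.6% (76.8% to 90.6%) in B cells and 88.8% (88.2% to 89.4%) in cancer cells of the same library. T cells thus differed from B cells in both values by more than the counting error. Within the T cells, the cluster led by Foxp3, the factor of regulatory T cells, had 105 CPM, and the largest cluster, with 1652 cells, had 65.3 CPM. Cancer markers summed to 73.7 CPM in T cells and 116 CPM in B cells of the lymph node, and their part in Timp2 was not tested. Primary tumour T cells had 37.0 CPM of Timp2 (27.1 to 49.3) beside 327 CPM of cancer markers, whose part in it was not tested. NK cells had 142.5 CPM (71.1 to 255) in the primary tumour and 55.4 CPM (27.7 to 99.1) in the lymph node, from 11 UMIs each, with cancer markers at 142.5 CPM and 126 CPM.

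The 3 transcripts of the proMMP2 activation complex, Mmp2, Mmp14 and Timp2, were found together without thinning in 30 of 97 fibroblasts (30.9%) and 16 of 71 pericyte-like cells (22.5%). In the primary tumour cancer cells, deeper at a median of 14516 UMIs, 4288 of 5930 (72.3%) held Mmp14 with Timp2, but 22 (0.371%) held all 3. In macrophages it was 2 of 618 cells. Of the cells with a UMI of Mmp2, 30 of 42 fibroblasts and 22 of 25 cancer cells held all 3.

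**Figure D3:**
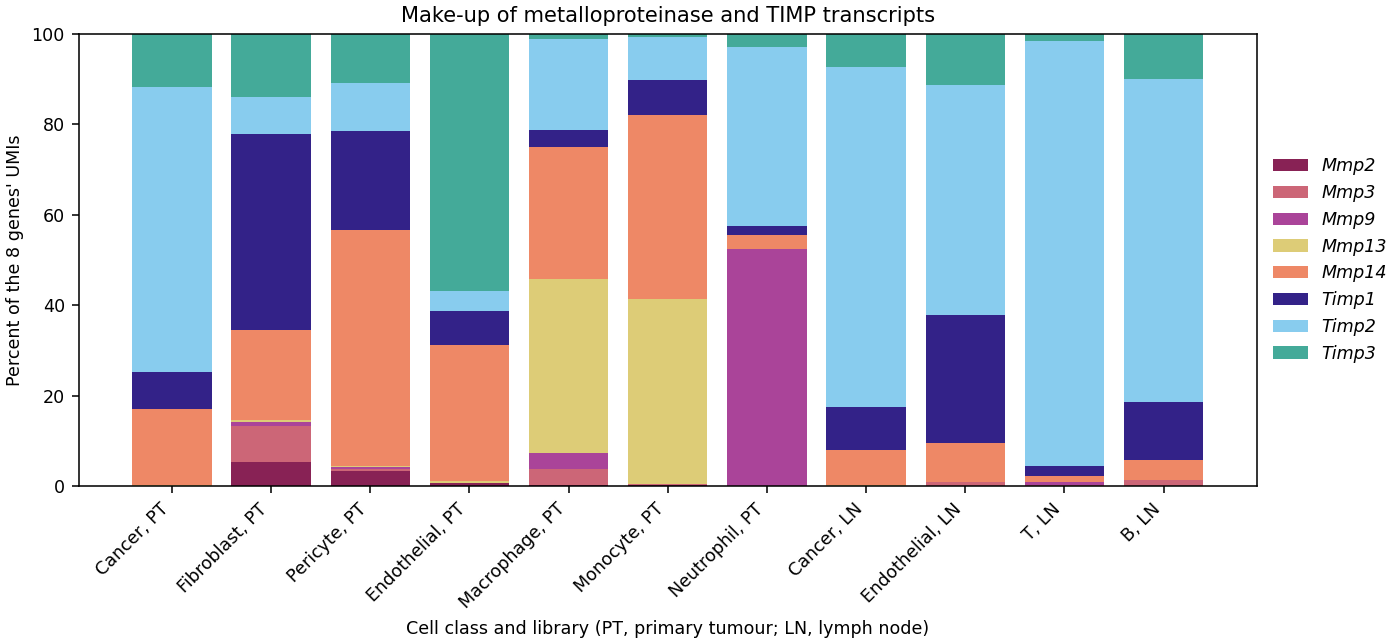
Each bar divides the UMIs of the 8 genes in 1 cell class and library, in percent, for classes with at least 100 such UMIs. MMPs made up 74.9% in primary tumour macrophages and 17.1% in primary tumour cancer cells, where Timp2 was the largest part.

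The balance of protease and inhibitor transcripts differed between the classes. MMPs made up 82.0% (78.2% to 85.4%) of the 8 genes' UMIs in monocytes, 74.9% (73.1% to 76.6%) in macrophages and 56.6% (53.7% to 59.5%) in pericyte-like cells. In fibroblasts it was 34.4% (32.6% to 36.3%), in endothelial cells 31.3% (27.1% to 35.8%) and in cancer cells 17.1% (16.8% to 17.4%). In the lymph node, cancer cells had 7.99% (7.56% to 8.44%) and endothelial cells 9.50% (8.10% to 11.1%), both below the values of the same classes in the primary tumour. These are shares of transcripts, and the genes' proteins were not measured.

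Within the classes the genes again divided by cluster. Fibroblasts formed 2 clusters. The first, 48 cells led by Thbs4, Cilp, Pdgfrl and Lrrc15, had 3254 CPM of Timp1 (3038 to 3481), 1124 CPM of Timp3 (999 to 1261) and 1198 CPM of Mmp14 (1068 to 1339). The second, 49 cells led by Htr2a, Hmga2 and Sox11, had 696 CPM of Timp1 (619.8 to 779.6), 187 CPM of Timp3 (149 to 233) and 488 CPM of Mmp14 (424 to 559). All 3 genes were thus higher in the first, as was Mmp2 at 367 CPM (297 to 449) against 116 CPM (85.8 to 152). The Timp3 interval of the first cluster overlapped that of endothelial cells, and its Mmp14 interval that of pericyte-like cells. The second cluster also carried pericyte and smooth muscle markers, which summed to 3366 CPM there, to 622 CPM in the first and to 6745 CPM in the pericyte-like cells, led by Rgs5, Vstm4 and Notch3.

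A further 28 primary tumour cells stayed unnamed because of their low depth, although all 8 fibroblast markers were above 10 CPM in them and summed to 22688 CPM. They were led by Cxcl13, Scara5 and Clec3b. Mmp2 was at 1232 CPM (1009 to 1490), Mmp3 at 628 CPM (472 to 819) and Timp2 at 1709 CPM (1444 to 2008) in these cells, each above every named class of the primary tumour. They had a UMI of Mmp2 in 82.1% and of Timp2 in 92.9% of cells without thinning. Mmp9 and Mmp13 were at 0, which allows up to 34.9 CPM.

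**Figure D4:**
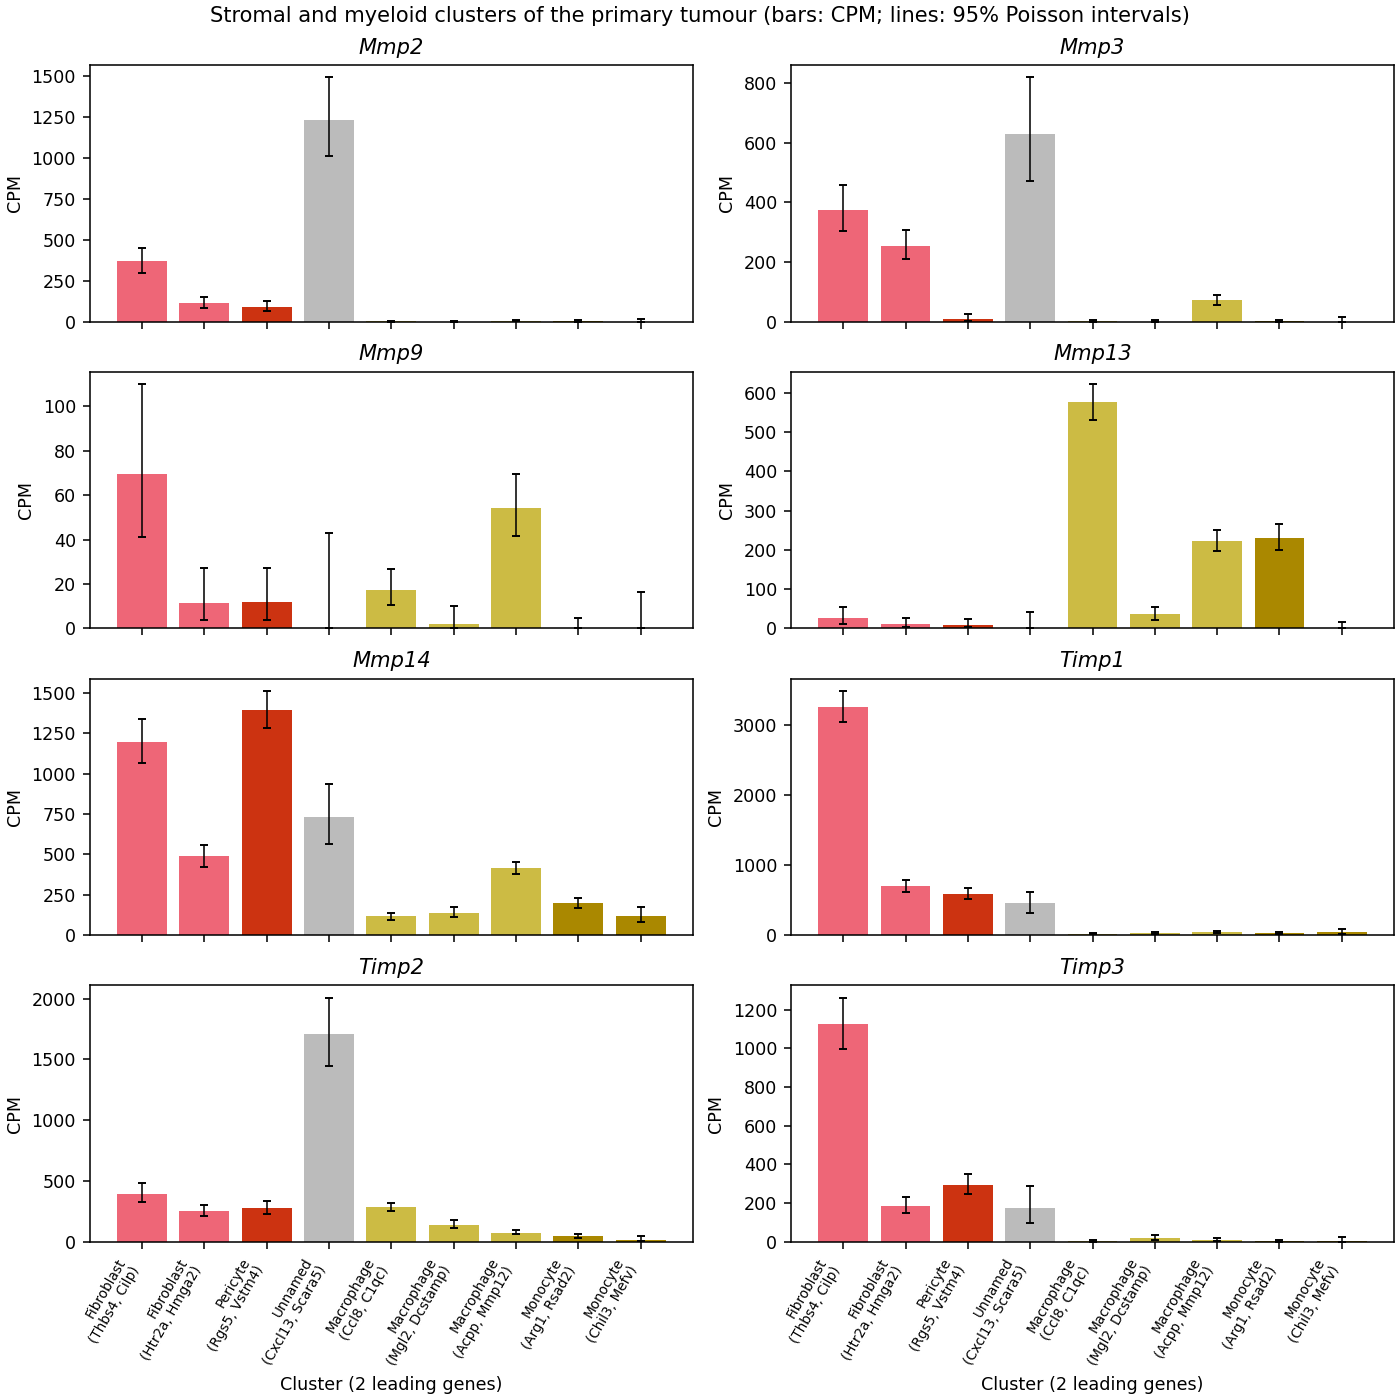
CPM of each gene in clusters of fibroblasts, pericyte-like cells, unnamed fibroblast-marker cells, macrophages and monocytes of the primary tumour, with lines for 95% Poisson intervals. The unnamed cells led by Cxcl13 stand highest for Mmp2, Mmp3 and Timp2, the fibroblasts led by Thbs4 for Timp1 and Timp3, and the macrophages led by Ccl8 for Mmp13.

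Macrophages fell into 3 clusters. In the 272 cells led by Ccl8, the complement gene C1qc and Mrc1, Mmp13 was at 576 CPM (532 to 622), and Mmp13 itself was among the 10 leading genes although it had been left out of the clustering. Timp2 was also highest there, at 284 CPM (253 to 317), and Mmp14 lowest, at 116 CPM (96.8 to 138). The 235 cells led by Acpp, with Mmp12 and Gpnmb among the leading genes, had 222 CPM of Mmp13 (196 to 251) but 416 CPM of Mmp14 (380.2 to 455) and 54.3 CPM of Mmp9 (41.8 to 69.3). The 111 cells led by Mgl2 and H2-DMb2, an antigen presentation gene, had 35.9 CPM of Mmp13 (21.9 to 55.4) and 1.79 CPM of Mmp9. The named monocytes were as uneven. Mmp13 was at 230.3 CPM (199 to 266) in the 312 cells led by Arg1 and at 0 in the 96 cells led by Chil3, which allows up to 13.3 CPM. Mmp14 was at 196 CPM (167 to 229) in the former and 120.1 CPM (79.1 to 175) in the latter, with overlapping intervals. A further 338 primary tumour cells stayed unnamed because of their low depth, although all 7 monocyte markers were above 10 CPM in them and summed to 3742 CPM. All 620 unnamed primary tumour cells together held 19 UMIs of Mmp13, at 9.07 CPM, so the monocyte levels cover the named cells only.

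Cancer cells of the primary tumour formed 6 clusters. Mmp14 ranged from 83.7 CPM to 158 CPM, Timp2 from 356 CPM to 569 CPM, Timp3 from 66.5 CPM to 109 CPM and Timp1 from 25.1 CPM to 76.9 CPM. Mmp13 was low in all 6, from 0.476 CPM to 4.05 CPM. Timp1 was lowest in the largest cluster, of 2297 cells led by Tmprss2 and Fam83e. It was highest in the cluster of 1068 cells whose leading genes included the cell cycle genes Cenpf and Anln.

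Cancer cells of the lymph node were set against those of the primary tumour, which addresses whether cells in the node carry another protease and inhibitor programme. Median depth was 35261 UMIs in the lymph node cancer cells and 14516 UMIs in those of the primary tumour, and its part in the ratios was not tested. Of the 8 genes, 5 had at least 100 UMIs in either library. Mmp14 was lower in the lymph node, at 56.9 CPM (53.7 to 60.3) against 116 CPM (113 to 118), a log2 ratio of -1.02 (-1.11 to -0.93), or 2.03-fold. Timp3 was lower by less, at 54.2 CPM (51.0 to 57.5) against 81.3 CPM (79.5 to 83.1), a log2 ratio of -0.58 (-0.68 to -0.49). Timp2 was higher, at 550 CPM (540 to 560.1) against 433 CPM (429 to 437), a log2 ratio of 0.34 (0.31 to 0.37). Timp1 was higher too, at 69.2 CPM (65.6 to 73.0) against 56.2 CPM (54.8 to 57.8), a log2 ratio of 0.30 (0.21 to 0.38). Mmp13 had a log2 ratio of -0.52 (-1.35 to 0.17), and its interval included 0.

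So 1 of the 5 genes was at least 2-fold lower in the lymph node, where 9.44% of 10724 genes were, and 0 of 5 were 2-fold higher, where 4.56% were. With 5 genes, these counts do not set the family apart from the background. The median log2 ratio of all 10724 genes was -0.18, and against it Mmp14 was at -0.85, short of 2-fold. Of the 591 lymph node cancer cells, 509 lay in a cluster that held 2 primary tumour cells. The only cancer cluster with at least 20 cells in both libraries, 54 lymph node and 964 primary tumour cells, gave log2 ratios of -0.73 (-1.03 to -0.47) for Mmp14, -0.51 (-0.84 to -0.21) for Timp3 and 0.50 (0.39 to 0.61) for Timp2, in the same directions. For Timp1 the ratio there was -0.35 (-0.81 to 0.04), opposite to that of all cancer cells. The 10 early response and heat shock genes, which also change with the handling of tissue, summed to 3087 CPM in primary tumour cancer cells and to 1168 CPM in those of the lymph node. Of them 5 were 2-fold lower and 1 higher, and their part in the ratios was not tested. Col1a2, Col3a1 and Lum were at 0 in lymph node cancer cells.

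**Figure D5:**
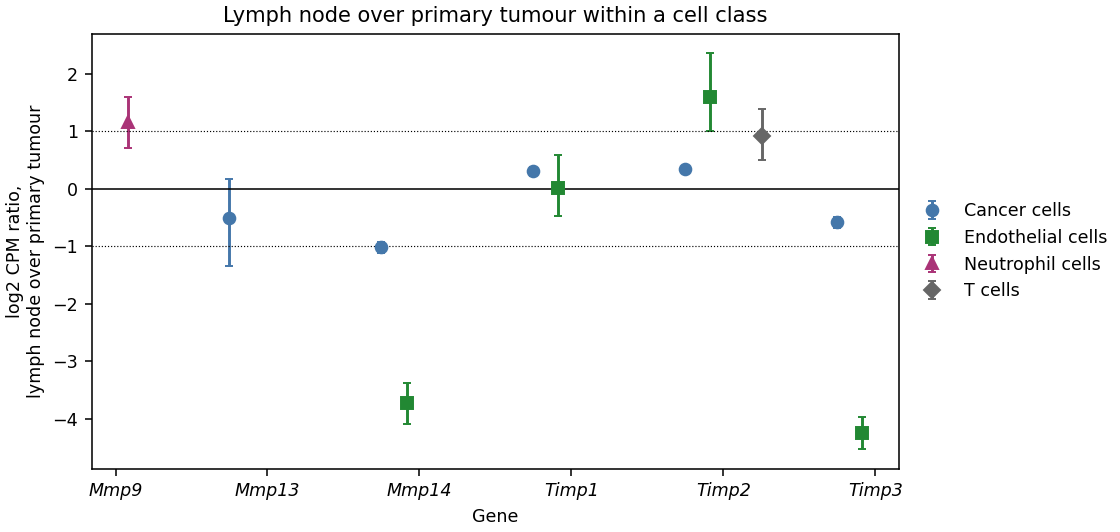
Log2 of the lymph node CPM divided by the primary tumour CPM, for members that reached 100 UMIs in 1 of the libraries, with 95% intervals of the split of the counts. Dotted lines mark 2-fold, and Mmp14 and Timp3 lie below 0 in cancer and endothelial cells, at -3.73 and -4.24 in the latter, and Timp2 lies above 0.

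Endothelial cells differed more between the tissues. Timp3 was at 49.3 CPM (42.3 to 57.1) in the lymph node and 935 CPM (826 to 1056) in the primary tumour, a log2 ratio of -4.24 (-4.53 to -3.96), or 19.0-fold. Mmp14 was at 37.1 CPM (31.0 to 43.9) against 493 CPM (414 to 582), a log2 ratio of -3.73 (-4.09 to -3.38), or 13.3-fold. Timp2 went the other way, at 222 CPM (207 to 238) against 71.4 CPM (43.6 to 110), a log2 ratio of 1.60 (1.00 to 2.36). Timp1 was alike, at 124 CPM (113 to 136) and 121 CPM (84.1 to 170), with an interval of the log2 ratio of -0.47 to 0.58. In the primary tumour 1 endothelial cell held 15 of its 34 UMIs, and without the top cell of each class the log2 ratio was 0.74.

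Of the 4 genes with at least 100 UMIs, 2 were thus 2-fold lower in lymph node endothelial cells, where 15.3% of 4457 genes were, and 1 was 2-fold higher, where 29.1% were. The 2 vessel populations were not alike. Glycam1, Chst4 and Fut7, the markers of high endothelial cells, were all at 0 in the primary tumour and summed to 3023 CPM in lymph node cells, and the median depth was 5318 and 22070 UMIs. The 8 endothelial markers summed to 1266 CPM in the lymph node and 6259 CPM in the primary tumour. Pericyte markers summed to 1282 CPM in primary tumour endothelial cells and 1.39 CPM in those of the lymph node. Early response and heat shock genes moved in the same direction, with 8 of 10 at least 2-fold lower in the lymph node and 1, Jun, higher. The part of these in the ratios was not tested. Lymph node endothelial clusters ranged in Timp3 from 0 in 27 shallow cells to 102 CPM in 43 deep ones, of which 1 cell held 47 of 143 UMIs. In the cluster of 28 cells named high endothelial cell-like, with Chst4 among its leading genes, Timp2 was at 116 CPM (93.8 to 142), Timp1 at 106 CPM (85.0 to 131), Mmp14 at 41.5 CPM (28.7 to 58.0) and Timp3 at 12.2 CPM (5.85 to 22.4).

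Of the myeloid classes, neutrophils and dendritic cells could be set against each other across the tissues. Mmp9 in neutrophils had a log2 ratio of 1.16 (0.71 to 1.59), and of 0.49 when CPM were averaged over single cells. The neutrophils' own 7 markers moved with it, summed to 181126 CPM in the lymph node and 49103 CPM in the primary tumour, and cancer markers were at 102 CPM and 2077 CPM. Their part in the ratio was not tested. Timp2 in neutrophils did not differ beyond counting error, with a log2 ratio of 0.26 (-0.43 to 0.87). In dendritic cells Timp2 was at 14.5 CPM in the lymph node and 79.2 CPM in the primary tumour, from 18 and 14 UMIs, of which 1 primary tumour cell held 9. Without the top cell of each the levels were 12.9 CPM and 31.4 CPM. Cancer markers summed to 69.9 CPM and 323 CPM in the same cells, and their part was not tested.

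Other genes of extracellular proteolysis, from lists of the pathway, were counted in the same classes. Of 15 other metalloproteinases 10 had at least 100 UMIs in a library. Mmp12, macrophage elastase, reached 2998 CPM (2935 to 3063) in macrophages of the primary tumour and 1134 CPM (1071 to 1201) in monocytes, and at 3.51 CPM in cancer cells. Of 6 cathepsins, lysosomal proteases, all passed 100 UMIs and 5 were highest in macrophages, led by Ctsd at 3285 CPM and Ctsb at 2905 CPM. Of 14 ADAM and ADAMTS genes all passed, with 6 highest in pericyte-like cells and 4 in endothelial cells. Adamts1 was at 725 CPM (629 to 832) in the latter. The share of all genes highest in each class was not counted, so the cathepsin, ADAM and ADAMTS counts are a description only. Of 6 other inhibitors 3 passed. All 8 activators and docking partners passed. Cd44, a hyaluronan receptor that binds MMP9, was at 559 CPM in cancer cells and 869.7 CPM in fibroblasts, and Bsg, which induces MMPs in neighbouring cells, at 539 CPM and 524 CPM. Ctsz, a cathepsin, was at 434 CPM in cancer cells.

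In cancer cells, Cd44 was at 559 CPM in the primary tumour and 270.4 CPM in the lymph node, lower there like Mmp14, whereas Bsg was at 539 CPM and 1099 CPM. By list, 3 of 6 other metalloproteinases with at least 100 UMIs were 2-fold lower and 1 higher, 3 of 6 activators and docking partners were lower and 1 higher, and 0 of 8 ADAM and ADAMTS genes were lower and 1 higher. Beside the background of 9.44% lower and 4.56% higher these are counts of few genes. In endothelial cells Adamts1 was at 51.3 CPM in the lymph node and 725 CPM in the primary tumour, in the direction of Mmp14 and Timp3.

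Across the 19 classes and libraries with at least 20 cells, the genes most alike to each member were found by Pearson's r of log2 (CPM + 10) among 11986 genes, as a description over classes that share libraries and depth. Ccl11, Tmem45a and Colec12 were most like Mmp2 (r of 0.994 to 0.997), and Cxcl14, Ltbp2 and Lpar1 most like Mmp3 (r of 0.938 to 0.979). Mmp13 was most like Mmp12, Mrc1 and C1qb (r of 0.951 to 0.960), and Mmp9 most like Camp, Il1f9 and Ltf (r of 0.932 to 0.941). Rusc2, Plod3 and Septin8 were most like Mmp14 (r of 0.932 to 0.950), Hacd1, Nectin3 and Syde1 most like Timp1 (r of 0.955 to 0.969), and Cd276, Cdr2l and Msrb3 most like Timp3 (r of 0.970 to 0.976). Timp2 had no close match, with r of 0.822 to 0.848 for Zfhx3, Mast2 and S100a6. Among the 8 genes themselves, r was highest for Timp1 with Timp3 (0.885), Timp1 with Mmp14 (0.872) and Timp1 with Mmp2 (0.842), and lowest for Mmp9 with Timp1 (-0.0023).

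Timp1 and Timp3 lie inside other genes on the opposite strand. Timp1 (GRCm38, chromosome X, 20870166 to 20874735, plus strand) lies within Syn1, and Timp3 (chromosome 10, 86300372 to 86349506, plus strand) within Syn3. Per class Syn1 had at most 8 UMIs and Syn3 at most 115. Timp2 (chromosome 11, 118301069 to 118355740, minus strand) overlaps Cep295nl on its own strand. Mmp2 (chromosome 8, 92827291 to 92853420), Mmp9 (chromosome 2, 164940780 to 164955850) and Mmp14 (chromosome 14, 54431612 to 54445364), all on the plus strand, overlap no other annotated gene.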

How the data were processed

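Both libraries were 10x Genomics 3′ libraries, 1 per tissue. The deposited matrices held raw UMI counts per gene and cell, without normalization, which the authors made with Cell Ranger (version 2.1.1 per the labels, 5.0.0 per the file headers) on GRCm38. The cell limits of the study's methods were not yet applied in the files. The 8 genes, lists and rules were chosen with earlier results of these data known. The named genes were all 8 members, the 3 highest list genes in the cancer, fibroblast, endothelial and macrophage classes, and the 3 genes most correlated with each member. One list gene that this rule names is not reported here.

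A cell was kept if it had more than 200 genes, no more than 6000, and a mitochondrial share of UMIs up to 5%. Scrublet (scanpy 1.11.5, expected rate 0.06) removed 391 primary tumour cells. In the lymph node its threshold marked 0, so 616 cells above the 94th percentile were removed. Depth before filtering was 173317475 UMIs in 12427 primary tumour cells and 122207852 UMIs in 11617 lymph node cells. All cell filters together left 43606 of 75642 Timp2 UMIs in the primary tumour and 13072 of 47537 in the lymph node.

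Variable genes (2000 per library, without the members and lists) gave 30 components, with cell cycle scores regressed out, and the Leiden method at resolution 1.0 (igraph 0.11.9) clustered both libraries together. The files hold no cell types, so names were rebuilt from markers: at least 3 raised markers, no more markers of another class among the 10 leading genes, and no low depth without a leading marker. Of 2 related classes, the one whose markers led was taken. In the fibroblasts led by Htr2a, neither fibroblast nor pericyte markers were among the leading genes. This left 620 primary tumour and 161 lymph node cells unnamed. Log2 ratios added 0.5 count, and shares of cells are expected values after thinning to 1000 UMIs, with Clopper-Pearson intervals taken at the expected count. The Poisson and ratio intervals were checked on simulated data. For thinning, the expected share was checked but not its interval. A count of 0 was given a limit of 3 counts. Mmp12 and the other list genes took no part in clustering. Gene positions are from GENCODE vM21. The alternatives were other cell limits, doublets kept, separate clustering, resolution 2.0, averaging over cells, leaving out the top cell and, added after seeing the data, joined stromal classes.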

Additional observations from a re-analysis of the deposited data

Results flagged for a closer look

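Timp2 had a log2 ratio, lymph node over primary tumour, of 1.60 in endothelial cells and of -2.46 in dendritic cells. These results stand out because the 2 classes moved in opposite directions, each by more than its counting error. The difference between them was not tested. The dendritic value rests on 18 UMIs in the lymph node and 14 in the primary tumour, where 1 cell held 9. Without the top cell of each the levels were 12.9 CPM and 31.4 CPM, and cancer markers summed to 69.9 CPM and 323 CPM in these cells. Their part was not tested.

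The 28 unnamed primary tumour cells led by Cxcl13 stand out because they belong to no class of the report's comparisons, and their levels lay above those of every named class. Mmp2 was at 1232 CPM, Mmp3 at 628 CPM and Timp2 at 1709 CPM.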

How the results depend on the processing

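The number of genes highest in fibroblasts, 3, was 3 or 4 under the alternatives but 5 with no upper limit on detected genes, which added Mmp14 and Timp3 and left 1 endothelial cell. Of members at least 2-fold lower in lymph node cancer cells, 1 became 2 with no upper limit on detected genes, Mmp13 at a log2 ratio of -1.49 being the added one, and 0 after taking off the median ratio of all genes. No alternative gave a member 2-fold higher. No ratio outside counting error changed direction. Mmp14 in cancer cells lay between -1.22 and -0.85, Timp3 between -0.80 and -0.41, Timp2 between 0.21 and 0.52 and Timp1 between 0.27 and 0.47. In endothelial cells Mmp14 lay between -4.03 and -3.70, Timp3 between -4.65 and -4.22, Timp2 between 0.86 and 2.68 and Timp1, whose interval included 0, between -0.29 and 0.87. In fibroblasts Timp1 lay between 845 CPM (related stromal cells joined, chosen after seeing the data) and 3335 CPM (no upper limit), Mmp3 between 189 CPM (joined) and 504 CPM (mean over cells) and Mmp2 between 165 CPM (joined) and 375 CPM (no upper limit). With a mitochondrial limit of 10%, Timp2 was highest in fibroblasts, not cancer cells. Mmp14 in pericyte-like cells lay between 968 and 1414 CPM and Mmp13 in macrophages between 305 and 391 CPM. The cause of these changes was not tested. No paired analysis was possible because each tissue had 1 library. Classes with few cells limit the depth behind a level: 3 UMIs in endothelial cells were worth 10.7 CPM.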
